A study of Homo sapiens with 12 samples.

Results

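MTF2 and PHF19 are Polycomb-like proteins that join the same repressive complex, and the MTF2 peaks described here are those that stood at promoters in PHF19-depleted K562 cells and had no counterpart in control cells. There were 3094 such peaks among the 18287 MTF2 peaks of the depleted cells. They were chosen from the peak lists by 3 conditions. The peak had to be in the MTF2 list of cells with shRNA sh2, it could share no base with any MTF2 or PHF19 peak of the control cells shCT, and some part of it had to lie within 2.5 kb of a transcript start of GENCODE 44 on GRCh37. They are called new promoter peaks below, where new means only that neither control list holds an overlapping peak. The sh2 cells were K562 cells infected with a pLKO.1 lentivirus that carries a hairpin against the long isoform of PHF19. The shCT cells were K562 cells infected with the empty vector. Both were selected with puromycin, and the ChIP chromatin of both held a spike-in from the fly. K562 is an established line from a chronic myeloid leukemia, driven by the BCR-ABL fusion, that can take on erythroid and megakaryocytic features. The comparison rests on 1 MTF2 library of sh2 cells, 1 MTF2 library of shCT cells and 1 PHF19 library of shCT cells. The series holds no MTF2 library of cells with the other hairpin. With 1 library in each condition no difference between conditions can be tested, and the intervals given are exact binomial 95% intervals that cover counting error only.

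PRC2 methylates lysine 27 of histone H3 and keeps developmental genes silent. Its Polycomb-like partners, PHF1, MTF2 and PHF19, carry a Tudor domain and a winged-helix domain, where the winged helix contacts unmethylated CpG, so that PRC2 is often found at CpG islands, stretches of DNA dense in CpG at the starts of many genes. MTF2 and PHF19 compete for the same face of SUZ12, a core subunit of PRC2. The question of the comparison was where MTF2 is found once the long isoform of PHF19 has been reduced.

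CpG density differed widely among the new promoter peaks, and the DNA of 7 of them shows the range. Each line gives the 200 bp of the peak with the most CpG that hold no annotated untranslated region, on the plus strand of GRCh37, with every CpG in capitals. CCDC188, HOXA3 and CCDC85C are 3 of the 4 highest scores. NKX2-1 and CCNA1 have the highest scores outside that group among homeobox and cell cycle genes. BCAM is 1 of 2 erythroid genes with a new promoter peak. It does not stand for both, since the other, not shown, scored higher and was richer in CpG. COL16A1, chosen after its values were seen, had the lowest CpG ratio among the 100 highest scores.
CCDC188, chr22:20142796-20142995: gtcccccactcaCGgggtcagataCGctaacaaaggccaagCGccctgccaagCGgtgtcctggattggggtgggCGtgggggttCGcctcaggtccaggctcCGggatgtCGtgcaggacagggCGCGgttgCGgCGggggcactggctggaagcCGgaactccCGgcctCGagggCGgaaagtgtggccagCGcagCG
HOXA3, chr7:27179077-27179276: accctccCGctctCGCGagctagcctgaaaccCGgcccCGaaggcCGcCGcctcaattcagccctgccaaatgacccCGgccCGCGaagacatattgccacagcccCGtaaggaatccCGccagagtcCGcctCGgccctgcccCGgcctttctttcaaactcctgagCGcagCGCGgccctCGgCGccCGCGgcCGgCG
CCDC85C, chr14:100069642-100069841: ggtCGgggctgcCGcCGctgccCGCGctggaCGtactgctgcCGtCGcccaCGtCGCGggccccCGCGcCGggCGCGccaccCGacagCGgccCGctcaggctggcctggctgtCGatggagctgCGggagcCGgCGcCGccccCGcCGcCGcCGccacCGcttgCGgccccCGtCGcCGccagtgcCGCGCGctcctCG
NKX2-1, chr14:36992289-36992488: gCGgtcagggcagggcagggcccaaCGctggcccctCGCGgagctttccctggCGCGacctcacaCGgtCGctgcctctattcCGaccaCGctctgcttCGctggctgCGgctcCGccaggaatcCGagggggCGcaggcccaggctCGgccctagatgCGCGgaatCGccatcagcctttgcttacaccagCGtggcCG
CCNA1, chr13:37006306-37006505: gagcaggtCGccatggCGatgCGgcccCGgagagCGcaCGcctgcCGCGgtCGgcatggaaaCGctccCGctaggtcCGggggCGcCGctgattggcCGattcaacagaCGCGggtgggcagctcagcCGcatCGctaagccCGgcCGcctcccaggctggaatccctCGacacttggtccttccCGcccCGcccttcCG
BCAM, chr19:45322525-45322724: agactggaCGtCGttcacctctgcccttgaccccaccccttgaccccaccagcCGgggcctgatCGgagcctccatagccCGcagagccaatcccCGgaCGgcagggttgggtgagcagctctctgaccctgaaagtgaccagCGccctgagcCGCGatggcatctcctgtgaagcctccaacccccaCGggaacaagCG
COL16A1, chr1:32156136-32156335: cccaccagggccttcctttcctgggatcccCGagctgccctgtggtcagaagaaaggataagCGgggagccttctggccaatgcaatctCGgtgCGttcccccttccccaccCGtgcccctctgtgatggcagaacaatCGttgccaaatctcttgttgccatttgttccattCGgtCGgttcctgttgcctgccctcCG
The CCDC85C window lies in coding sequence of that gene and holds 37 CpG, the most of the 7. The CCNA1 window is intronic and holds 25, and the HOXA3 window, in an intron of the longest HOXA3 transcripts, holds 24. The NKX2-1 window lies upstream of the gene, in an intron of the noncoding gene ENSG00000283098, and holds 21 CpG. The CCDC188 window lies upstream of the gene, outside annotated transcripts, and holds 18. The BCAM and COL16A1 windows each touch a coding exon and hold 12 and 9 CpG.

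The sh2 list was larger than the control list. It held 18287 MTF2 peaks over 63.2 Mb of the genome in sh2 cells, against 12502 peaks over 29.0 Mb in shCT cells, and the PHF19 list of shCT cells held 5621 peaks over 11.5 Mb. The study's methods kept only PHF19 peaks above a minimum number of tags. The deposited list gives no tags, so all its peaks were used here. With the MTF2 control list alone 44.9% of the promoter peaks of sh2 cells had no control peak, against 41.5% with both lists. The median width was 2598 bp in the sh2 list, against 1780 bp in the MTF2 list of shCT cells, and the median score was 112 in sh2 cells, against 86.6 in shCT cells. The score is the value that the peak caller MACS gave each peak, and 50 was the lowest score in each list, so that a site below 50 in shCT cells counts as absent there. Of all sh2 peaks, 49.8% had no overlap with a control peak. Because the lists give no read depth, a deeper sh2 library and an effect of the depletion cannot be told apart. The levels of PHF19 and MTF2 could not be compared between sh2 and shCT cells here, since the RNA-seq table was used only for the authors' mean normalized count over all 6 libraries, which was 7797.5 for PHF19 and 2797 for MTF2. By that mean, the fetal globins HBG2 (171752) and HBG1 (146039), the transferrin receptor TFRC (31895) and GATA1 (7043) marked the cells as K562, while CD34 (0.162), MPO (1.43), ALB (6.72) and CD3E (13.6) were near 0. PTPRC, a leukocyte surface protein, was at 4514.

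Promoters held fewer of the new peaks than the rest of the genome did. Of the 7448 MTF2 peaks of sh2 cells within 2.5 kb of a start, 41.5% were new (interval 40.4 to 42.7%), against 55.4% of the 10839 peaks away from starts (54.5 to 56.3%). Seen from the other side, 34.0% of all new sh2 peaks lay at promoters (33.0 to 35.0%), against 47.4% of the sh2 peaks that overlapped a control peak (46.4 to 48.4%). A wide peak reaches a start more readily than a narrow one under this rule. By the peak's centre alone, 27.5% of new sh2 peaks (26.6 to 28.4%) lay within 2.5 kb of a start, against 37.0% of overlapping ones (36.0 to 37.9%) and 14.9% of all bases of the chromosomes. The share of new peaks among promoter peaks of sh2 cells differed between chromosomes. It was 64.2% on chromosome X (68 of 106, interval 54.3 to 73.2%) and 58.2% on chromosome 14 (117 of 201, 51.1 to 65.1%), against 28.0% on chromosome 21 (46 of 164, 21.3 to 35.6%).

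New promoter peaks were low and narrow, and both values come from the list that chose them, so they are a description. Their median score was 81.7 and their quartiles 62.3 and 124.8, against a median of 256 and quartiles of 131 and 502 for the 4354 promoter peaks of sh2 cells that overlapped a control peak. The 6005 new peaks away from promoters had a median score of 75.6. A score of at least 100 was reached by 1117 new promoter peaks (36.1%), against 3644 of the overlapping ones (83.7%), and a score of at least 500 by 12 (0.388%), against 1097 (25.2%). When the promoter peaks of sh2 cells were split by score into 5 groups of equal size, the new ones made up 79.5% of the lowest group, and 63.9%, 45.4%, 16.3% and 2.68% of the groups above it. New promoter peaks sat mostly near the floor of the list, and 40 were in the group with the highest scores. Counted only among sh2 peaks with a score at or above the median of that list, 932 promoter peaks (21.1%) were new. The median width of all 3094 members was 2068.5 bp, against 3885 bp for the overlapping promoter peaks and 1921 bp for new peaks away from promoters.

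**Figure D1:**
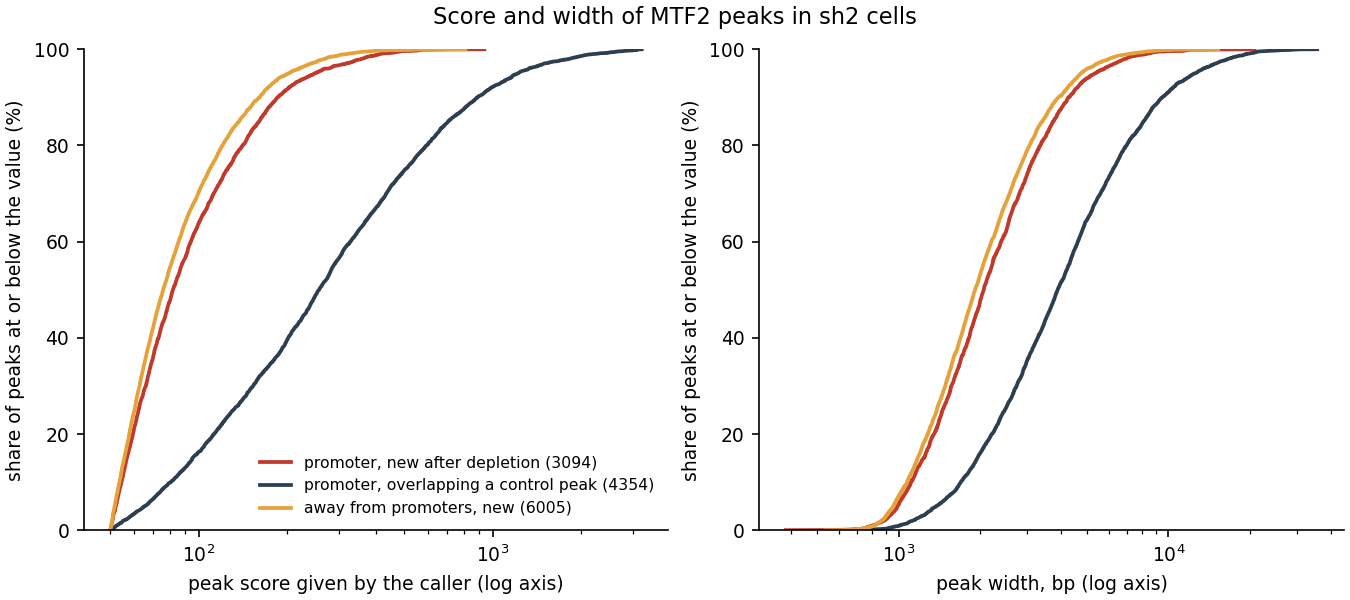
Cumulative share of MTF2 peaks of sh2 cells (y axis, percent) by peak score (left, log axis) and by peak width in bp (right, log axis), for new promoter peaks, promoter peaks that overlap a control peak, and new peaks away from promoters. The curves of both new sets run close together, with median scores of 81.7 at promoters and 75.6 elsewhere, while that of the overlapping promoter peaks lies to the right with a median of 256.

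The new promoter peaks nearest to a threshold were close to peaks on its other side. The member farthest from a start lay 2497 bp from one of GALNT16, and the nearest new peak beyond the limit lay 2501 bp from a start, on chromosome 11. A member at KIAA1755 on chromosome 20 directly adjoined a control peak, and the member at MEGF11 lay 4 bp from one, whereas an sh2 peak at DSP with a score of 158 was left out for an overlap of 2 bp. The lowest score among members was 50, the floor of the list, and 1 of the 3 lowest scores was at RBFOX1, which encodes a splicing regulator of neurons. Of all members, 12.4% had a control peak within 1000 bp, 32.3% within 5000 bp and 82.5% within 100000 bp. The median distance to the nearest control peak was 12749.5 bp, against 9774 bp for new peaks away from promoters.

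The new promoter peaks were less often on top of a start than the overlapping ones. They covered a transcript start of the nearest gene in 53.9% of cases (1668 of 3094, interval 52.1 to 55.7%), against 74.8% of the overlapping promoter peaks (73.5 to 76.1%). A further 21.2% lay upstream and 24.9% downstream of the nearest start. Since GENCODE lists every transcript, many of these starts are of minor isoforms. A start of the main (canonical) transcript of a protein-coding gene lay within 2.5 kb of 33.8% of the new promoter peaks (32.1 to 35.5%), against 46.0% of the overlapping ones (44.5 to 47.5%). The nearest gene was protein-coding for 62.7% and a long noncoding RNA for 21.5%, while 72 members lay nearest to a microRNA. The 3094 peaks had 2489 nearest genes, and 421 of these held several members. CACNA1A, a neuronal calcium channel gene with many annotated starts, held 9, and ABR held 8, so members at 1 gene are not separate genes.

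The sets of peaks differed in CpG content and CpG islands. The choice of the members read no sequence, but it required a transcript start within 2.5 kb. Since CpG islands lie at the starts of many genes, the contrast with peaks away from promoters is not independent of that choice. The CpG ratio is the number of CpG seen over the number that the C and G content would give. Its median was 0.328 over new promoter peaks, with 10% of them below 0.207 and 10% above 0.698, against 0.388 for overlapping promoter peaks and 0.284 for new peaks away from promoters. The median GC content was 52.4%, 54.0% and 49.5% in the same order. A stretch of at least 200 bp with at least 50% GC and a CpG ratio of at least 0.6, the loose definition of a CpG island, lay in 67.3% of the new promoter peaks (interval 65.6 to 68.9%), against 86.4% of overlapping promoter peaks and 49.98% of new peaks away from promoters. A stretch of at least 500 bp with at least 55% GC and a CpG ratio of at least 0.65, here called a strict CpG island, lay in 31.4% of the new promoter peaks (971 of 3094, interval 29.8 to 33.1%). The share was 55.4% for overlapping promoter peaks (53.9 to 56.8%) and 6.01% for new peaks away from promoters (5.42 to 6.64%). At matched widths the order was the same. Among peaks of 1500 to 2500 bp the share was 33.8% for new promoter peaks (370 of 1095) and 54.2% for overlapping ones (446 of 823). In peaks over 4000 bp it was 26.3% for new promoter peaks and 56.2% for overlapping ones.

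**Figure D2:**
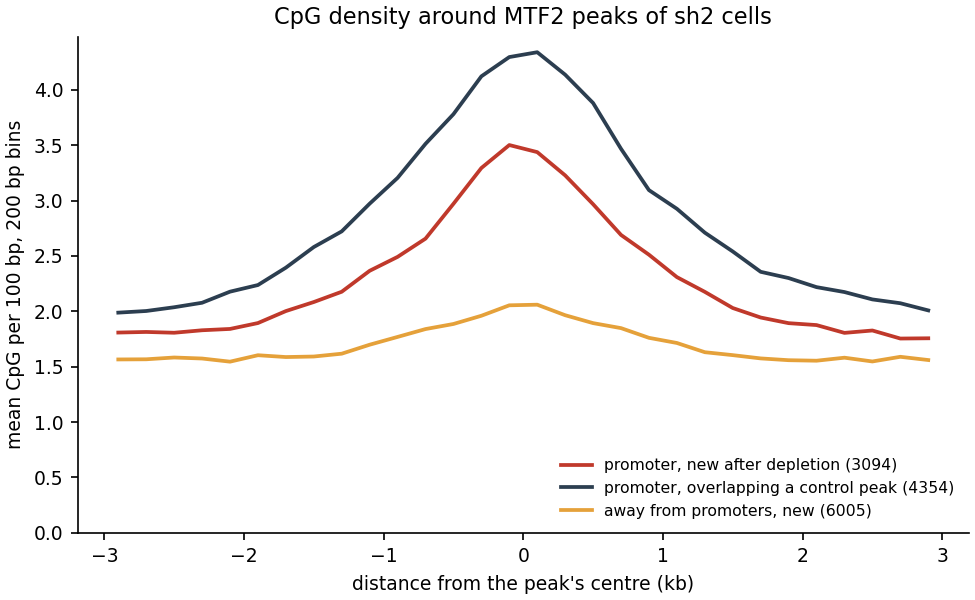
Mean CpG per 100 bp in bins of 200 bp (y axis) by distance from the peak's centre in kb (x axis) for new promoter peaks, overlapping promoter peaks and new peaks away from promoters, all from sh2 cells. At the centre the density is 3.50 CpG per 100 bp for new promoter peaks, 4.30 for overlapping promoter peaks and 2.05 for new peaks away from promoters, against 1.81, 1.99 and 1.57 in the outermost bin on the left.

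The new promoter peaks with a strict CpG island differed from those without in where they lay and what they were next to. Of the 971 with an island, 79.2% covered a start and 77.7% had a protein-coding gene nearest, against 42.3% and 55.9% of the 2123 without. Peaks with an island lay farther from control peaks, at a median of 39266 bp against 8981 bp for those without. The median score was 91.9 with an island and 77.5 without, and the median width 2084 bp with an island and 2060 bp without. Genes nearest to a member had a median mean normalized count of 5.70 with an island and 2.12 without. Both kinds of peak stood among the 100 highest scores, as the sequences of CCDC85C and COL16A1 show.

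Short motifs were counted on both strands in the 300 bp at each peak's centre, for 11 motifs. These were CpG itself, GCG, the GC box GGGCGG of SP factors, the letters AGATAA of GATA factors, the E-box CACGTG of MYC and MAX, the AP-1 letters TGANTCA, the cyclic AMP element TGACGTCA, the ETS letters CCGGAAG, the CCAAT box, the TATA box as TATAAA and the YY1 letters AAGATGG. The GC box, which contains GCG, was found in 22.4% of new promoter peaks (20.9 to 23.9%), against 29.3% of overlapping promoter peaks and 10.8% of new peaks away from promoters. It was found in 54.1% of windows of the same length at the starts of 20098 protein-coding genes. The GATA letters were found in 9.47% of new promoter peaks (8.46 to 10.6%), against 8.13% of overlapping ones, 11.4% of new peaks away from promoters and 7.03% of gene starts. The ETS letters were found in 2.33% of new promoter peaks, against 12.1% of gene starts. The centre window held a median of 7 CpG in new promoter peaks, against 8 in overlapping ones, 5 in new peaks away from promoters and 21 at gene starts. The TATA letters were found in 8.86% of new promoter peaks (7.88 to 9.91%), against 9.23% of gene starts, and the AP-1 letters in 6.82% (5.96 to 7.77%), against 5.90%. The windows of new promoter peaks held less CpG, fewer GC boxes and fewer ETS letters than gene starts, but they lie at peak centres, and 53.9% of the peaks cover a start.

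Genes with a new promoter peak were mostly weakly expressed or silent. Of the 22969 genes with a level, the authors' mean normalized count over sh2, sh1 and shCT libraries together, 1675 (7.29%) had a new peak at a promoter and 2595 (11.3%) had an sh2 peak there that overlapped a control peak. Some genes had both. The median level was 2.57 for genes with a new promoter peak (interval of the median 2.14 to 3.20), against 3.57 for genes with an overlapping peak (2.90 to 4.35) and 35.7 for all genes. Of the nearest genes with a level, 36.6% reached a mean normalized count of 10 (34.2 to 39.1%), against 57.7% of all genes. By level, a new promoter peak was found at 13.9% of genes between 0 and 1, at 13.9% between 1 and 10, at 11.4% between 10 and 100, at 4.36% between 100 and 1000 and at 0.734% above 5000. The share was 7.86% for the 4553 genes at 0. Overlapping promoter peaks were likewise rarer at high levels, with 20.6% of genes between 0 and 1 and 1.62% above 5000. The level is a mean over depleted and control cells, so it does not say how a gene changed.

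**Figure D3:**
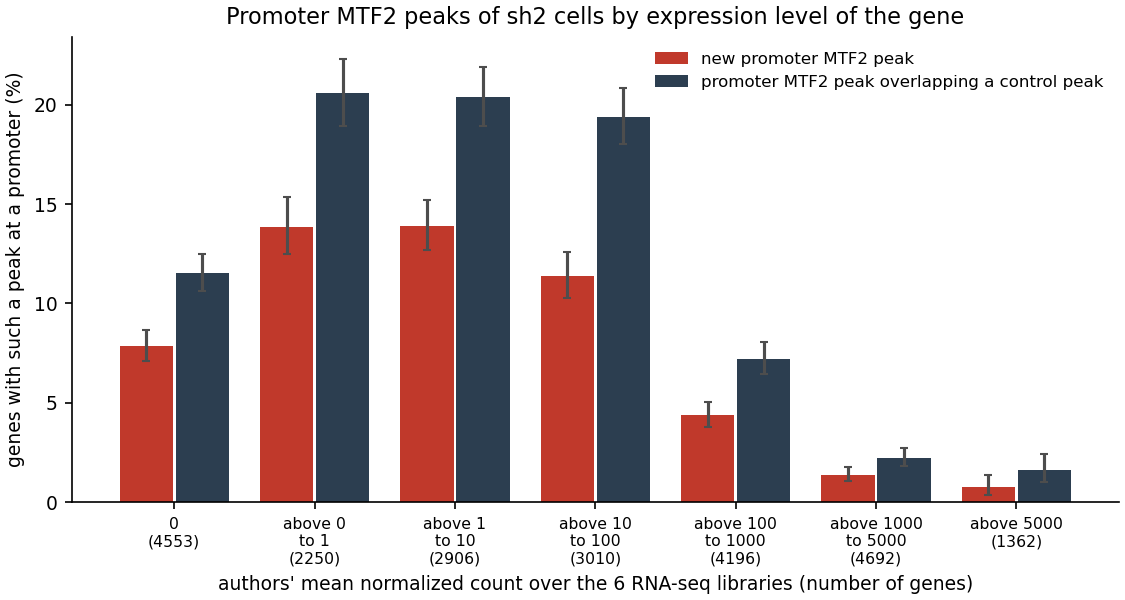
Share of genes (y axis, percent) with a new promoter MTF2 peak and with a promoter MTF2 peak overlapping a control peak in sh2 cells, by the authors' mean normalized count over the 6 RNA-seq libraries (x axis, with the number of genes), with exact binomial 95% intervals as bars. The share of genes with a new promoter peak is 13.9% between 1 and 10 and 0.734% above 5000.

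A few highly expressed genes held a new promoter peak, and most of these peaks were weak. GNAS, which encodes the alpha subunit of the stimulatory G protein and is imprinted, had the highest level of all (19599) and a peak with a score of 53.9. The peak at PDIA6, a disulfide isomerase of the endoplasmic reticulum with a level of 13280, had a score of 158. The peaks at GNB1, a G protein subunit, and KDM5B, a histone demethylase, had scores of 61.5 and 50.1. The GNAS and PDIA6 peaks covered an annotated start, and the GNAS peak also lay within 2.5 kb of a start of GNAS-AS1. The level is given per gene and not per start. It does not say whether the start next to a peak is the one that yields the transcripts counted.

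Many of the genes already had MTF2 elsewhere in control cells. For 44.2% of the new promoter peaks (1367 of 3094, interval 42.4 to 46.0%), an MTF2 peak of shCT cells lay somewhere between 2.5 kb upstream of the nearest gene and its end, and for 36.7% (1136) at a start of that gene. Counted by gene, 637 of the 1675 genes (38.0%) had an MTF2 peak of shCT cells at a promoter and 278 (16.6%) had a PHF19 peak there, against 11.3% and 8.002% of all 22969 genes. In all, 1004 (59.9%) had no control peak of either protein at any promoter, against 85.8% of all genes. Their median level was 2.22 (1.68 to 3.02), and 245 of them were listed at 0.

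Among the 12 strongest new promoter peaks there were 3 homeobox promoters, axon guidance and neuronal genes, and little expressed genes of other kinds. The highest score, 936, belonged to an 11.8 kb peak at CCDC188, a coiled-coil gene, at chr22:20137923-20149718, which lay 104 kb from the nearest MTF2 peak of shCT cells. The peak at chr12:120030501-120034454 covered a start of TMEM233, a transmembrane protein gene, with a score of 627, and the peak at chr14:100068076-100070643 covered a start of CCDC85C, with 585. CCDC85C was the exception in expression, with a mean normalized count of 860, while the other named genes among the 12 lay between 0 and 13.1. NRN1, which encodes neuritin, and DPYSL4, a collapsin response mediator of axon growth, had peaks scoring 577 and 563, which lay 110 kb and 26.0 kb from control MTF2 peaks. The DPYSL4 peak covered a start, whereas the NRN1 peak lay 2290 bp downstream of the nearest one. NKX2-1, the homeobox factor of lung, thyroid and forebrain, had a peak over its start at chr14:36989664-36993523 with a score of 562.3, 4.30 kb from a control MTF2 peak, and a level of 0. SLC2A5, the fructose transporter, and FBLN1, a fibulin of the extracellular matrix, had scores of 556 and 553, and the SLC2A5 peak lay only 104 bp from a control MTF2 peak. SLIT1, an axon repellent, had a score of 525 and a control MTF2 peak at 1121 bp, and its peak lay 2024 bp downstream of the nearest start.

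The widest new promoter peak spanned 20855 bp at QRFP, a neuropeptide gene, with a score of 159, and lay 222 kb from a control MTF2 peak. The next widest, 19619 bp, lay downstream of the start of EN2, a homeobox gene of the midbrain and hindbrain, with a score of 407. It was 1299 bp from an MTF2 peak of shCT cells.

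HOXA2 to HOXA13 encode homeobox factors of the body axis. Between the HOXA2 and HOXA13 starts, widened by 2.5 kb on each side, 9 of the 14 MTF2 peaks of sh2 cells were new promoter peaks. Of all promoter peaks of sh2 cells, 41.5% were new, and of those on chromosome 7, 32.7% were (125 of 382). The 14 peaks are neighbours in this stretch, so their count is a description, and a difference in share was not tested. All MTF2 peaks of sh2 cells that reach into this stretch covered 82085 bp, 37403 bp of it in new promoter peaks, against 18288 bp in 8 MTF2 peaks and 2510 bp in 2 PHF19 peaks of shCT cells. The highest score of these new peaks, 698, was at chr7:27175879-27181782, over a start of HOXA3 and 612 bp from a start of HOXA5. Its neighbour at chr7:27182731-27194335, with a score of 322, spanned the start of HOXA6. The peak over HOXA2 at chr7:27140164-27146376 scored 557, and another next to HOXA13 scored 483. Control MTF2 peaks were found mainly from HOXA9 to HOXA13, with the highest score, 620, at chr7:27239004-27246231 over the HOXA13 start, where the sh2 peak scored 1151. Both control PHF19 peaks lay between 81.0 and 96.0 kb from the HOXA2 start, next to HOXA11 and HOXA13.

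**Figure D4:**
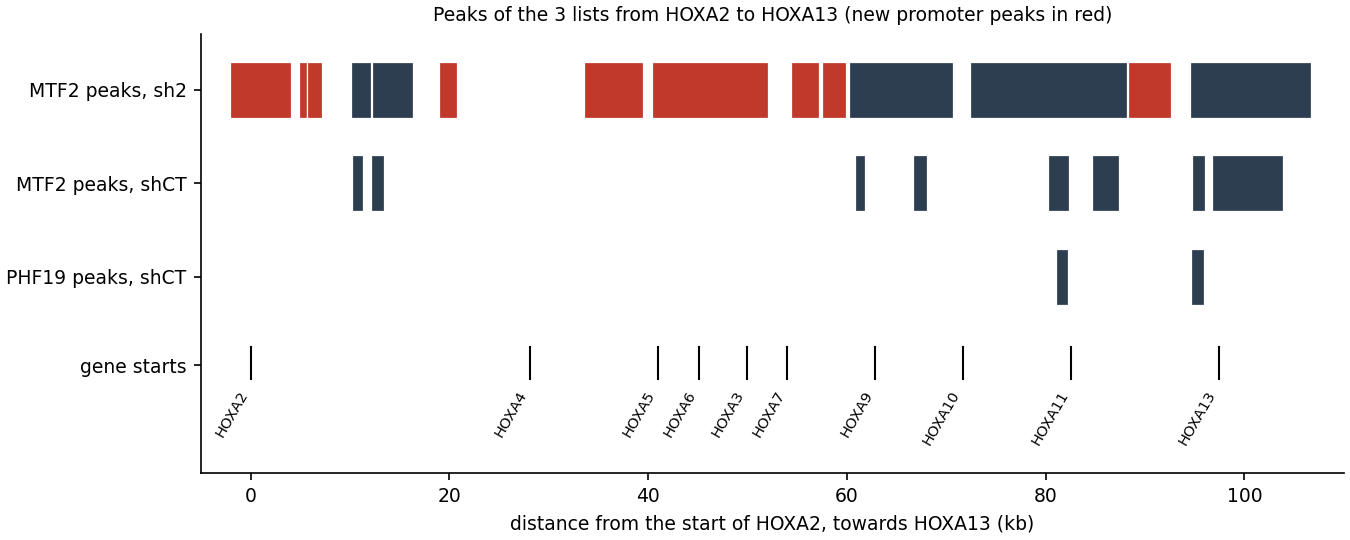
Peaks of MTF2 in sh2 cells, MTF2 in shCT cells and PHF19 in shCT cells (rows) that reach between the HOXA2 and HOXA13 starts, widened by 2.5 kb on each side, by distance in kb from the HOXA2 start (x axis), with the starts of the canonical HOXA transcripts as ticks and new promoter peaks in red. Of the 9 red peaks, 8 lie around HOXA2 to HOXA7, where shCT cells have 2 MTF2 peaks, and 1 lies next to HOXA13.

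New promoter peaks were counted in gene lists that were drawn up with earlier results of these data known, and each count stands beside 7.29% of all genes with a new promoter peak and 11.3% with an overlapping one. The highest shares of genes with a new promoter peak were in the lists of guidance, matrix, ion channel, Wnt and homeobox genes. Among genes with either kind of peak, 46.1% of all genes had a new one. That share was 61.3% for guidance, 58.3% for matrix and 51.9% for ion channel genes, but 40.9% for Wnt and 33.0% for homeobox genes. Of the 193 homeobox genes, 38 (19.7%) had a new promoter peak and 96 (49.7%) an overlapping one. Besides the HOXA genes these included HMX1, OTX2, PAX8, PAX1, IRX5, VAX1 and PHOX2A, regulators of eye, brain, kidney, skeleton and autonomic neurons. Of the 38, 20 had no control peak at a promoter, and 31 had a mean normalized count under 10. The median over all 193 homeobox genes was itself low, at 1.65. The peak of HMX1 scored 473, that of PAX8 scored 339 and that of OTX2 scored 117. The PAX8 peak lay 2397 kb from a control MTF2 peak and the OTX2 peak 242 kb.

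Basic helix-loop-helix factors, which direct the choice of neuronal, muscle and pancreatic fates, had mostly overlapping promoter peaks. Of 62, 2 (3.23%) had a new promoter peak, while 30 (48.4%) had a peak that overlapped a control peak. The list is too short for 3.23% to be set apart from the 7.29% of all genes. Among the 32 with either kind of peak, 6.25% had a new one, against 46.1% over all genes, a difference that was not tested. The genes with a new promoter peak were NEUROD1, a factor of neurons and islet cells, with a score of 163, and PTF1A, a factor of pancreas and cerebellum, with a score of 145. Both genes were at 0 and had no control peak at a promoter. Among forkhead, SOX, T-box and GATA factors 11 of 83 (13.3%) had a new promoter peak and 27 (32.5%) an overlapping one. GATA3, a factor of T cells, had a new peak over its start with a score of 168. GATA5 scored 167 and FOXD3, a factor of neural crest, scored 165.

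In the Wnt pathway 18 of 83 genes (21.7%) had a new promoter peak and 35 (42.2%) an overlapping one, and 9 genes had both. Among the ligands, WNT11 had a score of 363 at chr11:75915718-75919160, WNT5A had 288 at chr3:55515780-55518872 and WNT10A had 186. The WNT5A peak lay 359 bp from the start and 1393 kb from a control MTF2 peak, and the gene was at 0, whereas WNT11 had a mean normalized count of 45.4. The ligand amplifiers RSPO2 and RSPO3 had scores of 149 and 81.9, and their peaks covered a start. Among receptors, FZD3 scored 213, FZD10 85.1 and FZD7 70.4, and the coreceptor LRP5, with a level of 1737, scored 73.4. CELSR1, a cadherin of planar cell polarity, had the highest score of the list, 394. Of the inhibitors, DKK3 scored 133 and held 4 new promoter peaks, NKD2 scored 87.4, and AXIN2, a scaffold of the destruction complex and a target of the pathway, scored 51.2. FZD3 and PLCG2, a phospholipase, are genes the study names. Both also had an overlapping sh2 peak at a promoter, and the new PLCG2 peak, at chr16:81956459-81960785, scored 120. Other genes the study names, CDKN1A, FOXC1, WNT4, ATF3, NODAL, NOTUM and PDGFRA, had overlapping peaks at promoters and no new one, and PHF19 and MTF2 had no sh2 MTF2 peak at a promoter.

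Guidance and matrix genes came first by their share with a new promoter peak. Of 71 ephrins, semaphorins, netrins, slits and their receptors, 19 (26.8%) had a new promoter peak and 21 (29.6%) an overlapping one. NRP2, a semaphorin coreceptor, scored 412 at chr2:206546420-206549863 and lay 757 kb from a control MTF2 peak. EPHB2, an ephrin receptor, scored 254. NTN4 and NTN1, netrins, scored 161 and 83.2, and ROBO1, the slit receptor, scored 53.3 at 7293 kb from a control MTF2 peak. In the list of 136 collagens and matrix proteins, 35 (25.7%) had a new promoter peak and 45 (33.1%) an overlapping one. These included the head-to-head pair COL4A1 and COL4A2 of the basement membrane, which shared a peak scoring 173, and VCAN, a proteoglycan, with 147. LAMA5, a laminin chain, was expressed, with a mean normalized count of 1264, and its peak scored 133.

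Genes of excitable cells also held new promoter peaks. Of 166 ion channel genes, 42 (25.3%) had a new promoter peak and 62 (37.3%) an overlapping one. A level under 10 was found for 31 of the 42, but the median level of the whole list was 4.34. CACNA1C, a calcium channel of heart and smooth muscle, scored 468, HCN4, the pacemaker channel, scored 396, and KCNAB2, a potassium channel subunit, scored 385. Of 116 neurotransmitter receptor genes, 20 (17.2%) had a new promoter peak. All 20 had a level under 10, but the median level of the whole list was 1.14. HRH1, a histamine receptor, scored 341, CHRNB4, a nicotinic receptor subunit, scored 212, and GRIN2A, a glutamate receptor subunit, scored 203. Among FGF and receptor tyrosine kinase genes 11 of 69 (15.9%) had a new promoter peak. RET scored 198 and FGFR3, at a level of 1166, scored 197.

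**Figure D5:**
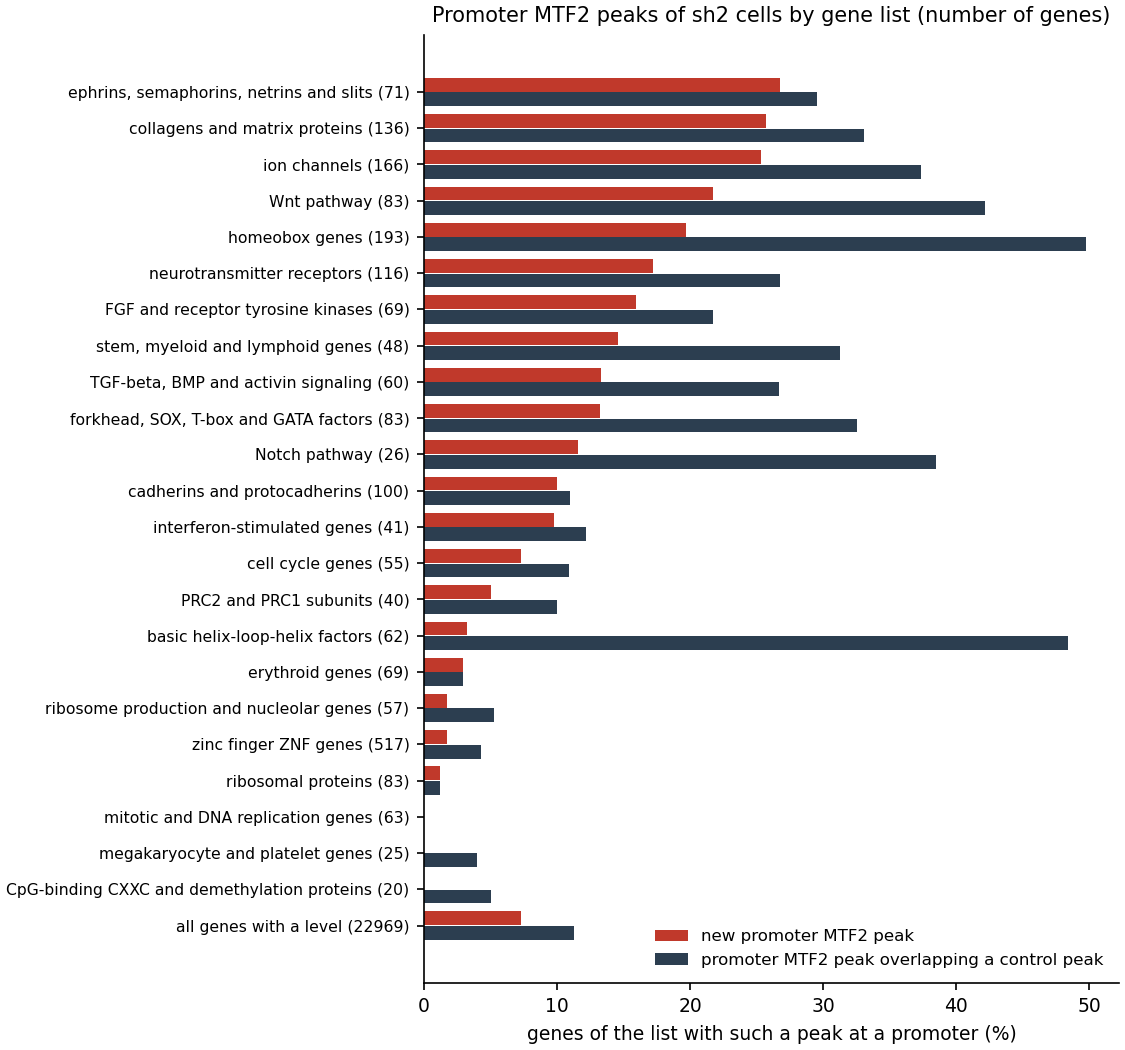
Share of the genes of each list (x axis, percent, with the number of genes) that had a new promoter MTF2 peak and a promoter MTF2 peak overlapping a control peak in sh2 cells. Lists run from 26.8% of guidance genes at the top to 0 of 63 mitotic and DNA replication genes, with all 22969 genes (7.29% and 11.3%) in the bottom row.

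Among signaling genes of the Notch pathway 3 of 26 (11.5%) had a new promoter peak: the Notch modifiers MFNG and LFNG, with scores of 239 and 71.9, and the ligand DLL4, with 80.8. In the TGF-beta, BMP and activin list 8 of 60 (13.3%) had one. FSTL3, which binds activin, scored 162, SMAD9 scored 162, BMP7 scored 110 and TGFB2 scored 90.1. Of 100 cadherins and protocadherins, 10 (10.0%) had a new promoter peak, 5 of them in the PCDHG cluster on chromosome 5. PCDHGC5 scored 408, and PCDHGA7 and PCDHGB4 shared a peak with 193.

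Few erythroid genes held a new promoter peak, and the list had a high median level. Over all genes with a level between 1000 and 5000, the share with a new promoter peak was 1.39%. Of 69 erythroid genes, 2 (2.90%) had a new promoter peak and 2 an overlapping one, at a median level of 4053 for the list. The 2 with a new promoter peak were CA2, the red cell carbonic anhydrase, and BCAM, the Lutheran blood group protein. CA2 had a score of 108 and a level of 253, and BCAM a score of 66.5 and a level of 343. Their peaks differed in sequence. The CA2 peak had a CpG ratio of 0.883 and a strict CpG island, whereas the BCAM peak had a ratio of 0.303 and no strict island. None of 25 megakaryocyte and platelet genes had a new promoter peak, but the list is too short to be set apart from the 7.29% of all genes. Of 48 stem, myeloid and lymphoid genes, 7 (14.6%) had a new promoter peak. FLI1, an ETS factor of megakaryocytes and endothelium, had the highest score of them, 466, at chr11:128554481-128562214, lay 212 kb from a control MTF2 peak and had a level of 0.644. It held 3 new promoter peaks. CD8A scored 128 and CSF1R, the receptor of macrophage growth factor, scored 107.

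Ribosome, mitotic and DNA replication genes were nearly free of new promoter peaks, and these lists had high levels. The median level was 4727 for mitotic and DNA replication genes, 44231 for ribosomal proteins and 3642 for ribosome production genes. A new promoter peak was found at 1.39% of all genes between 1000 and 5000 and at 0.734% above 5000. None of 63 mitotic and DNA replication genes had a new or an overlapping one, and 1 of 83 ribosomal protein genes (RPL26L1, score 57.2) and 1 of 57 ribosome production genes (EBNA1BP2, score 109) had a new one. Among 55 cell cycle genes 4 (7.27%) did, a share at the 7.29% of all genes. CCNA1, the germ line cyclin A, scored 180 at chr13:37004279-37006549 and lay 486 kb from a control MTF2 peak. CCND2, a D-type cyclin with a level of 2051, scored 167, KLF4, a factor that slows the cycle, scored 150, and CDK6, with a level of 5254, scored 76.8. All 4 peaks covered a start and held a strict CpG island. Of 40 PRC2 and PRC1 subunit genes, BCOR and CBX7, both of PRC1 complexes, had a new promoter peak, with scores of 72.3 and 63.5. Of 517 ZNF genes, 9 (1.74%) had one, led by ZNF467 with 327, and 22 (4.26%) had an overlapping one. Of 41 interferon-stimulated genes, 4 (9.76%) had one: HERC6, MX2, MX1 and XAF1, with scores of 165, 111, 78.4 and 69.6. Of 20 genes of CpG-binding CXXC and demethylation proteins and 3 clustered histone genes none had one.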

How the data were processed

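MTF2 and PHF19 ChIP-seq peak lists of K562 cells (sh2 and shCT, 1 library each) were analysed. Reads had been mapped by the authors to the joined human and fly genomes (hg19, dm3) with Bowtie, only unique hits being kept, and peaks had been called per library with MACS against a control, according to the methods and the submitters' processing notes. Versions: not given in the sources used here. Each deposited list holds peak positions and the caller's score as the authors left it, without depth, tags or spike-in factor. The headings of the MTF2 lists name an IgG control, and the heading of the PHF19 shCT list names another hairpin sample, so its control is not certain. From the authors' RNA-seq table (TopHat, DESeq2) only the mean normalized count over the 6 libraries, a score here, was taken. Its other columns (fold changes, standard errors, statistics and p-values deposited by the authors) hold their comparison and were not used, and no counts per library were used here.

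Overlaps (at least 1 bp), distances and sequence measures were computed with numpy 2.4.6, scipy 1.17.1, pysam 0.24.0 and pandas 2.3.3 in Python 3.11.15 on GRCh37, the assembly of hg19, with GENCODE 44 lifted to it, and were checked against direct counting on simulated data. Coordinates are 1-based. Of the 27348 symbols, 22969 matched 1 gene of the annotation, directly or by an older symbol. A gene held a peak at a promoter when the peak lay within 2.5 kb of any of its starts. Intervals are exact binomial at 95%, or from order statistics for medians. Members, lists and comparisons were chosen with earlier results of these data known. Named were the 12 highest and 3 lowest scores, the 5 widest, up to 3 genes per list, the 5 highest levels, genes the study names and members next to thresholds, and further list genes were added with their values known. Some genes taken by this rule are not described. Alternatives were other overlaps, promoter windows, score minimums and gene assignments. Samples were grouped by title. IgG in shCT cells and PHF19 in sh1 and sh2 cells were not analysed here. Figures were drawn with matplotlib 3.10.9.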

Additional observations from a re-analysis of the deposited data

How the results depend on the processing

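Of 79 recomputed values, 30 stayed within their interval or within 1.5 times the count, and 49 moved. When only sh2 peaks covered to under 50% by a control peak counted as new, 56.6% of promoter peaks were members, with a median width of 2514.5 bp, a median score of 97.5, CpG islands (loose definition) in 71.8%, a level of at least 10 at 34.1% of the nearest genes and a control MTF2 peak at the gene of 56.2%. When peaks within 1 kb of a control peak counted as overlapping, the members were 36.4% of promoter peaks and 38.7% had a control MTF2 peak at the gene, and with the MTF2 control list alone they were 44.9%. With a promoter window of 1 kb these values were 38.1% and 41.4%, with a median width of 2128 bp, score of 84.3, GC content of 53.3% and CpG ratio of 0.356, and islands in 73.8%. With the peak's centre within 2.5 kb of a start, the medians were 1964 bp, a score of 80.1, 52.9% GC and a ratio of 0.350, islands lay in 70.0% and 41.6% had a control MTF2 peak at the gene. With starts of protein-coding genes alone there were 2039 members, 39.1% of promoter peaks, with 53.9% GC, a ratio of 0.340, islands in 70.9% and a control MTF2 peak at the gene of 55.3%. Among sh2 peaks scoring at or above the median there were 932 members (21.1%), with 3121.5 bp, a score of 160, 53.9% GC, a ratio of 0.349 and islands in 81.5%, and at or above the upper quartile 190 (7.33%), with 4491 bp, a score of 314, 54.4% GC, a ratio of 0.353, islands in 89.5% and a level of at least 10 at 30.6% of nearest genes. The strict island definition gave 31.4%, a level of at least 100 was reached by 15.4%, leaving out genes at 0 gave 46.0% with a level of at least 10, and counting control peaks at promoters of the gene alone gave 36.7%. In whole peaks the GATA letters were found in 52.7% and the GC box in 66.4% of members.

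No paired analysis was possible because each ChIP-seq condition had 1 library and no RNA-seq values per library were used. For the same reason no replicate was left out. The depth of the libraries is unknown, and sites below a score of 50 are in none of the lists.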
